A study of Saccharomyces cerevisiae with 17 samples.

Results

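The genes described here encode the 10 subunits of the budding yeast INO80 complex that were chosen by name, namely INO80, ARP5, ARP8, NHP10, IES1, IES2, IES3, IES4, IES5 and IES6. All 10 were found among the 5797 gene identifiers of the deposited tables. The cells were wild-type Saccharomyces cerevisiae of the laboratory strain BY4741, which carries deletions in HIS3, LEU2, MET15 and URA3. Cultures in YPD, a rich medium, were taken at an optical density (OD600) of 0.8. RNA 5′ ends were counted by SMORE-seq, a method that ligates an adapter to the 5′ end of RNA and so records where transcripts begin. One group was poly(A)-selected and treated with CIP and then TAP (CIP/TAP, 1 library), another was poly(A)-selected and treated with TAP alone (TAP, 1 library), and the last was depleted of ribosomal RNA (ribo depletion, 3 samples in 1 table). TAP (tobacco acid pyrophosphatase) removes the cap so that capped ends can take the adapter, and CIP (calf intestinal phosphatase), given first, strips phosphates from uncapped RNA, which then cannot. The series also holds 12 chromatin samples, among them immunoprecipitations of Myc-tagged Ino80 with and without H2A.Z, which were not analysed here.

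INO80 is a large ATP-dependent chromatin remodeller that slides and spaces nucleosomes, among other places at the first nucleosome of genes, and that also acts in DNA repair and replication. The Ino80 protein carries the Snf2-family ATPase and serves as the scaffold on which the other subunits assemble in modules. Its action on nucleosomes that hold the histone variant H2A.Z links it to the SWR1 complex, the remodeller that inserts H2A.Z. Its name comes from the inositol requirement of the mutant.

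The tables held 1097457 counts in CIP/TAP, 864536 in TAP and 2821480 in ribo depletion. The limit set by a count of 0, taken as 3 counts, corresponds to 2.73 CPM (counts relative to the table's total) in CIP/TAP, 3.47 CPM in TAP and 1.06 CPM in ribo depletion. Each group had a single table, so groups could not be tested against each other, no value has a spread between replicates, and every interval reflects counting error alone. Which strand was counted is not stated in the labels or headers. Reads of a gene and of a neighbour on the opposite strand cannot be told apart, so a count is given as the count listed under an identifier and not as the expression of that gene. Of the genes in which the strain carries a deletion, whole or partial, LEU2, URA3 and MET17 (MET15) were listed at 0 in all 3 tables. HIS3 had 730 counts in CIP/TAP, 650 in TAP and 655 in ribo depletion. Of genes that cells of its mating type express, STE2 and MFA2 were at 0 and MFA1 had 28, 1 and 34 counts. These identifiers therefore do not check the strain label.

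Counts under the INO80 complex genes were held almost entirely by IES3, with ARP8 next. The ATPase gene INO80 itself had few counts. It was still above 66.6% of all identifiers in CIP/TAP, 58.9% in TAP and 68.9% in ribo depletion. At least 10 counts were listed for 5 of the 10 genes in CIP/TAP, against 33.0% of all identifiers. In TAP the number was 7 of 10, against 37.1% of all identifiers, and in ribo depletion 4 of 10, against 31.5%. The exact 95% binomial intervals of these shares, 18.7 to 81.3%, 34.8 to 93.3% and 12.2 to 73.8%, each include the share over all identifiers. The median count of the 10 genes was 28 in CIP/TAP, 26.5 in TAP and 5.5 in ribo depletion, while the median over all identifiers was 0 in each table. ARP5, ARP8 and IES3 were the 3 genes with at least 10 counts in every table, and IES5 was the 1 gene listed at 0 in all of them, as were 2296 of all identifiers.

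**Figure D1:**
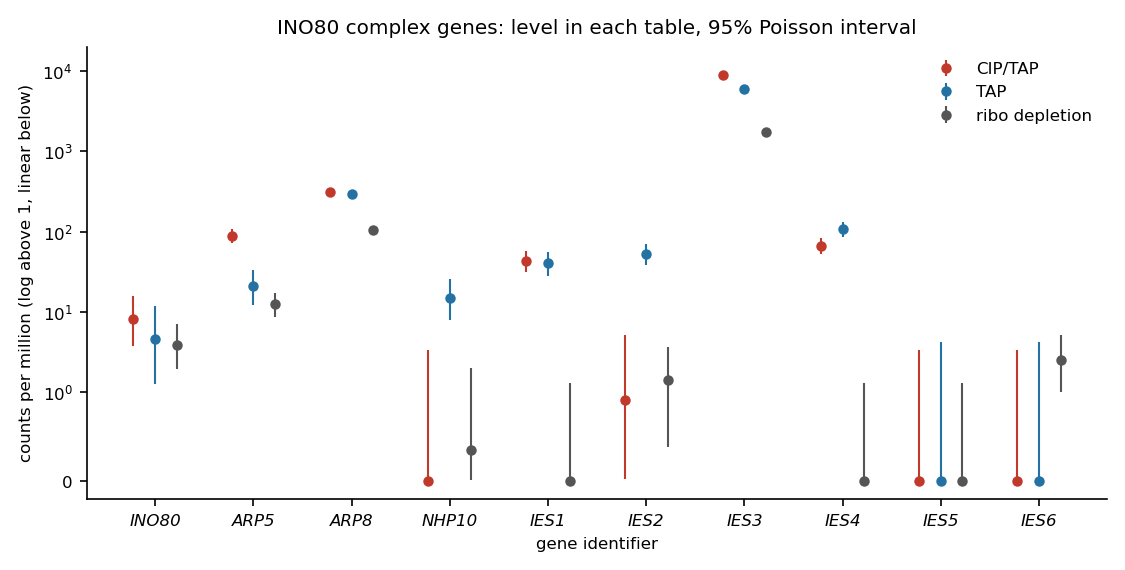
Level of each of the 10 genes in CPM, counts relative to the table's total (vertical axis, logarithmic above 1 and linear below), with exact 95% Poisson intervals, for CIP/TAP (red), TAP (blue) and ribo depletion (grey). IES3 lies above all other members in each table, at 8864, 6024 and 1735 CPM, and IES5 lies at 0 in all 3.

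The ATPase gene INO80 (YGL150C, R64 chromosome VII, 221104 to 225573, C strand) had 9 counts in CIP/TAP, 4 in TAP and 11 in ribo depletion. The levels were 8.20 CPM (95% Poisson interval 3.75 to 15.6), 4.63 CPM (1.26 to 11.8) and 3.90 CPM (1.95 to 6.98). All 3 intervals overlap, so no difference between the tables was detectable for INO80 at this depth.

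The actin-related subunits are encoded by ARP8, whose product sits with Arp4 and actin on the HSA region of Ino80 and contacts linker DNA, and by ARP5, whose product joins Ies6 in the module that grips the nucleosome. ARP8 (YOR141C, chromosome XV, 589942 to 592587, C strand) had 345 counts in CIP/TAP, 256 in TAP and 299 in ribo depletion. In CPM these are 314.4 (282.1 to 349.3), 296.1 (260.9 to 334.7) and 106.0 (94.3 to 118.7). ARP8 was thus at a like level in both poly(A) tables and lower in ribo depletion on this scale, a difference that rests on the scaling described below. ARP5 (YNL059C, chromosome XIV, 512668 to 514935, C strand) had 97 counts in CIP/TAP, 18 in TAP and 35 in ribo depletion, or 88.4 CPM (71.7 to 107.8), 20.8 CPM (12.3 to 32.9) and 12.4 CPM (8.64 to 17.3). The CIP/TAP table stood above both others for ARP5, and the intervals of TAP and ribo depletion overlap.

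The yeast-specific Nhp10 module, which binds the amino-terminal part of Ino80 and extranucleosomal DNA, consists of the HMG-box protein Nhp10 with Ies1, Ies3 and Ies5. Its genes spanned the whole range of levels. IES3 (YLR052W, chromosome XII, 247201 to 247953, W strand) had 9728 counts in CIP/TAP, 5208 in TAP and 4894 in ribo depletion. It held 94.4%, 91.8% and 93.2% of all counts under the 10 genes, and ranked 13th, 19th and 95th among the 5797 identifiers. In contrast, IES5 (YER092W, chromosome V, 342855 to 343232, W strand) was listed at 0 in each table. IES1 (YFL013C, chromosome VI, 107852 to 109930, C strand) had 47 counts in CIP/TAP, 35 in TAP and 0 in ribo depletion. Its poly(A) levels of 42.8 CPM (31.5 to 56.9) and 40.5 CPM (28.2 to 56.3) lie far above the floor of 1.06 CPM in ribo depletion. NHP10 (YDL002C, chromosome IV, 446967 to 447578, C strand) had 0, 13 and 1 counts in CIP/TAP, TAP and ribo depletion, so only TAP stood above the floor.

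The remaining genes encode Ies2, an activator of the ATPase, Ies6, the partner of Arp5, and Ies4, which is phosphorylated by checkpoint kinases after DNA damage. IES2 (YNL215W, chromosome XIV, 244468 to 245430, W strand) had 1 count in CIP/TAP, 45 in TAP and 4 in ribo depletion. Nearly all counts of IES2 were therefore in the TAP library, at 52.1 CPM (38.0 to 69.6), against 0.911 CPM (0.0231 to 5.08) in CIP/TAP and 1.42 CPM (0.386 to 3.63) in ribo depletion. IES4 (YOR189W, chromosome XV, 689624 to 689974, W strand) had 73 counts in CIP/TAP, 93 in TAP and 0 in ribo depletion. Like IES1, IES4 was counted in both poly(A) libraries and in none of the ribo depletion reads. IES6 (YEL044W, chromosome V, 69757 to 70257, W strand) had 0 counts in both poly(A) tables and 7 in ribo depletion, which is 2.48 CPM (0.997 to 5.11). The intervals of IES6 in CIP/TAP (0 to 3.36 CPM) and TAP (0 to 4.27 CPM) overlap that of ribo depletion. No table thus stood highest for IES6, and its counts are too few to set beside those of its partner ARP5.

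The order of the genes was also read per length, as CPM per kb of gene. The recorded reads are 5′ ends, which need not scale with length. In CIP/TAP the order was IES3 (11772), IES4 (189.5), ARP8 (118.8), ARP5 (39.0), IES1 (20.6), INO80 (1.83) and IES2 (0.946), and only the intervals of INO80 and IES2 overlap among neighbours in that order. In TAP it was IES3 (8000.05), IES4 (306.5), ARP8 (111.9), IES2 (54.1), NHP10 (24.6), IES1 (19.5), ARP5 (9.18) and INO80 (1.04). There the levels per kb of IES2 and NHP10, of NHP10 and IES1, and of IES1 and ARP5 overlap in their intervals. In ribo depletion the order was IES3 (2304), ARP8 (40.1), ARP5 (5.47), IES6 (4.95), IES2 (1.47), INO80 (0.872) and NHP10 (0.579), and the intervals of each neighbouring pair from ARP5 down overlap. IES3 led on this scale in every table, and among the genes with any counts INO80 was next to lowest in CIP/TAP and ribo depletion and lowest in TAP.

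The counts were then set beside those of the neighbouring genes. Of the 10 genes, 7 had a divergent start-side neighbour, that is, the nearest listed identifier beyond the 5′ end was on the other strand and pointed away. The other 3, ARP5, IES2 and IES4, had a neighbour on the same strand there.

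IES3 and FCF2 form the closest divergent pair, with 224 bp between their starts. FCF2 (YLR051C) encodes a factor for processing of the small-subunit ribosomal RNA precursor. IES3 had 9728 counts against 65 under FCF2 in CIP/TAP, 5208 against 81 in TAP and 4894 against 7 in ribo depletion. IES3 thus held 99.3% of the pair's counts in CIP/TAP, 98.5% in TAP and 99.9% in ribo depletion, with exact 95% intervals of 99.2 to 99.5%, 98.1 to 98.8% and 99.7 to 99.9%. Such one-sidedness was not rare: among divergent pairs over 150 and up to 350 bp apart with at least 50 counts, 11.9% of 438 pairs in CIP/TAP, 11.0% of 429 in TAP and 11.1% of 415 in ribo depletion were at least as uneven. On the other side of IES3, NRS1 (YLR053C), a convergent gene 147 bp away, was at 0 in all 3 tables.

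ARP8 started 470 bp from LSC1 (YOR142W), the gene for the alpha subunit of succinyl-CoA ligase in the TCA cycle. ARP8 had 345 counts against 4 under LSC1 in CIP/TAP, 256 against 26 in TAP and 299 against 30 in ribo depletion. Again the INO80 complex gene had the larger count in each table, at 98.9% (97.1 to 99.7%), 90.8% (86.8 to 93.9%) and 90.9% (87.2 to 93.8%) of the pair. Among divergent pairs over 350 and up to 500 bp apart with at least 50 counts, 28.9% of 114, 44.5% of 110 and 68.5% of 108 were at least as uneven in the same order of tables. SFL1 (YOR140W), the repressor gene convergent to ARP8 at 661 bp, had 110 counts in CIP/TAP, 60 in TAP and 3 in ribo depletion.

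NHP10 had the smaller count of its pair in each table. It started 406 bp from RMD1 (YDL001W), a gene required for sporulation, and had 0 counts against 129 under RMD1 in CIP/TAP, 13 against 31 in TAP and 1 against 427 in ribo depletion. The convergent cohesin gene MCD1 (YDL003W) was at 0 throughout. IES6 likewise had 0 counts against 45 under GLY1 (threonine aldolase, 965 bp away) in CIP/TAP and 0 against 54 in TAP. In ribo depletion the order turned, with 7 counts under IES6 and 0 under GLY1.

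For INO80 the start-side pair with ARO2 (chorismate synthase, 826 bp away) held few counts, 9 against 4 in CIP/TAP, 4 against 39 in TAP and 11 against 35 in ribo depletion. YGL149W, an open reading frame whose annotated start overlaps that of INO80 on the opposite strand, is not among the listed identifiers. The Mediator gene NUT1 (YGL151W), convergent at 182 bp, had 28 counts in CIP/TAP and 0 in both others. IES1 had 47 counts in CIP/TAP, 35 in TAP and 0 in ribo depletion, its start-side neighbour YFL012W, 717 bp away, had 1, 0 and 0, and the convergent stress gene HSP12 had 0 in each. At IES5 the start-side neighbour MET6 (methionine synthase, divergent at 688 bp) was at 0 as well, and TSC11 (a TORC2 subunit gene, convergent at 88 bp) had 41 counts in CIP/TAP, 1 in TAP and 7 in ribo depletion. Over the 7 divergent pairs, the INO80 complex gene had the larger count in 4 in CIP/TAP, 3 in TAP and 3 in ribo depletion. The 7 include ties at 0, IES5 with MET6 in every table and IES1 with YFL012W in ribo depletion.

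ARP5, IES2 and IES4 had no opposite-strand neighbour at their start. ARP5 followed YNL058C at 828 bp, which was at 0 in all tables. Its convergent neighbour NOP2 (YNL061W), the gene of a ribosomal RNA methyltransferase that ends 272 bp from the end of ARP5, had 4267, 3938 and 9699 counts. The counts of NOP2 were of a like size in the poly(A) libraries, whereas those of ARP5 were 97 and 18. IES2 lay 296 bp downstream of RAP1, the gene of a general regulatory factor, which had 43 counts in CIP/TAP, 31 in TAP and 0 in ribo depletion, and the nearest opposite-strand gene, RRG9, had 272, 314 and 484. IES4 lay 444 bp downstream of MSB1, with 27, 155 and 94 counts, and its nearest listed identifiers on the opposite strand were GSP2, 7518 bp from its start, and THI72, 8794 bp from its end. Of the 10 genes, IES4 was the farthest from any listed gene on the opposite strand.

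**Figure D2:**
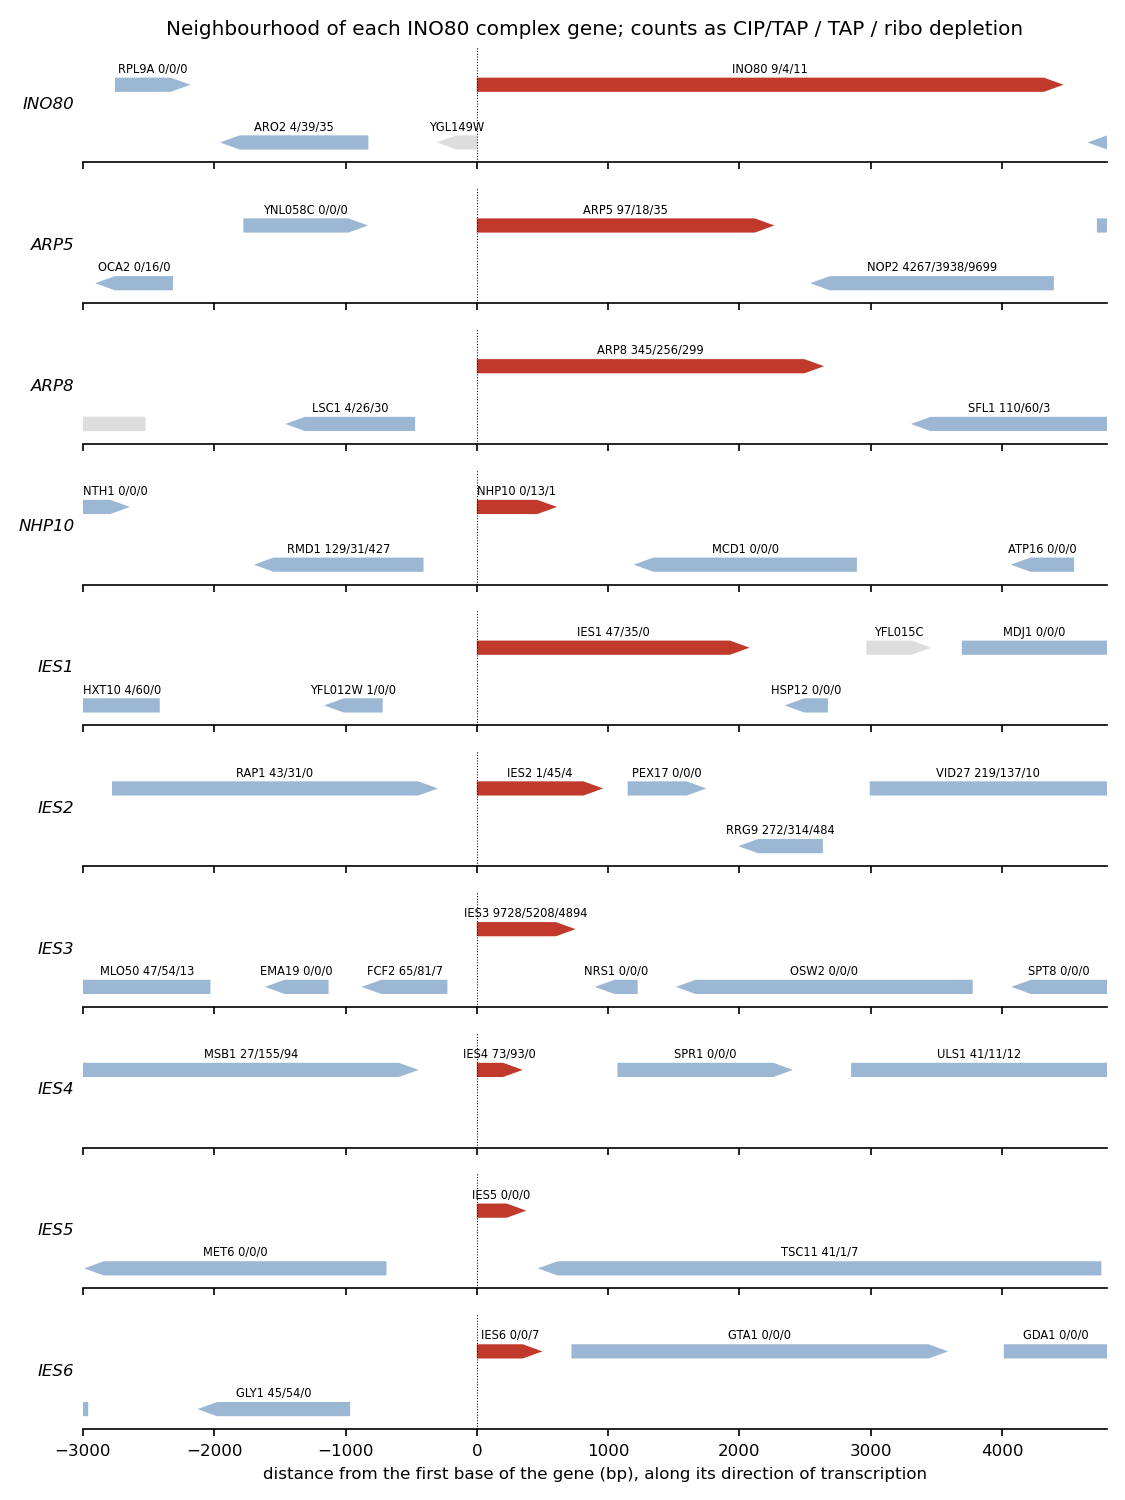
Neighbourhood of each gene (red), drawn along its own direction of transcription with distance from its first base in bp on the horizontal axis. Genes on the same strand are in the upper lane and genes on the opposite strand in the lower lane (blue where listed in the tables, light grey where not), each with its counts in CIP/TAP, TAP and ribo depletion. IES3, with 9728, 5208 and 4894 counts, faces FCF2 with 65, 81 and 7.

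Each gene was also set against all identifiers whose start-side neighbour had the same orientation and a like distance. Among the 918 identifiers with a divergent neighbour at over 150 and up to 350 bp, the class of IES3, at least 10 counts were listed for 88.0% in CIP/TAP, 90.0% in TAP and 85.3% in ribo depletion, with exact 95% intervals of 85.7 to 90.0%, 87.9 to 91.8% and 82.8 to 87.5%. IES3 was far above the class medians of 203, 155.5 and 212.5 counts, and only 8, 12 and 64 identifiers of the class had more. ARP8 and NHP10 share the class of 416 identifiers with a divergent neighbour at over 350 and up to 500 bp, whose medians were 11, 18 and 3 counts. ARP8 was above 85.3%, 85.3% and 78.1% of that class, while NHP10 was above 0%, 45.2% and 41.3%.

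INO80, IES1, IES5 and IES6 share the class with a divergent neighbour at over 500 and up to 1000 bp, where 22.9%, 27.0% and 22.3% of 1032 identifiers had at least 10 counts in CIP/TAP, TAP and ribo depletion. A count of 0, as at IES5, is thus the median of that class in each table. INO80 was above 76.8%, 68.6% and 78.3% of the class, IES1 above 86.6%, 85.0% and 0%, and IES6 above 0%, 0% and 76.5%. For the tandem genes the class medians were 0 as well, and the place within the class differed between tables. IES4 was above 93.6% of 687 identifiers in CIP/TAP, 96.8% in TAP and 0% in ribo depletion, where it was listed at 0. IES2 was above 68.9% of 996 identifiers in CIP/TAP, 94.8% in TAP and 76.6% in ribo depletion. ARP5 was above 94.8% of 636 identifiers in CIP/TAP, 80.7% in TAP and 88.4% in ribo depletion.

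**Figure D3:**
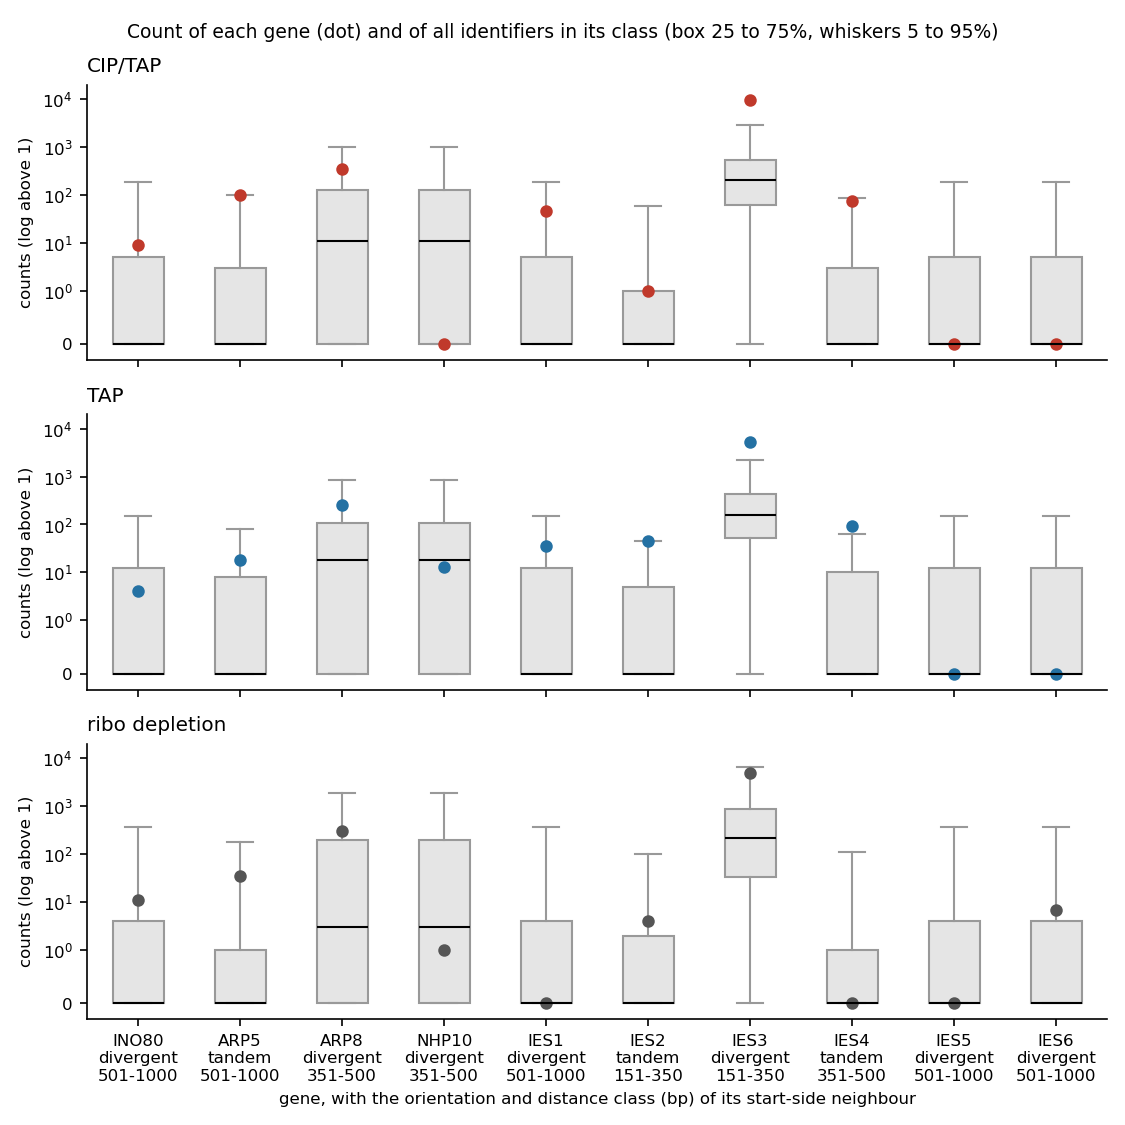
Count of each gene (dot) in CIP/TAP, TAP and ribo depletion (panels, vertical axis in counts, logarithmic above 1) beside all identifiers of its class of start-side neighbour (line: median, box: 25 to 75%, whiskers: 5 to 95%). IES3 lies above the whisker in both poly(A) tables, and IES5 lies at the class median of 0 in every table.

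CIP/TAP against TAP addresses which 5′ ends depend on uncapped phosphates. With TMM scaling of the pair, 1 of 5 genes with at least 50 counts over both tables was at least 2-fold higher in CIP/TAP, where 22.2% of all 1679 measured identifiers were, and 0 were lower, where 15.6% of all were. The higher one was ARP5, with 97 counts in CIP/TAP against 18 in TAP, a log2 ratio of 2.21 (exact 95% interval 1.51 to 3.06). The ratio of ARP5 was above that of 91.1% of all measured identifiers. IES3 was at 0.72 (0.67 to 0.77), ARP8 at 0.25 (0.01 to 0.49), IES1 at 0.24 (−0.42 to 0.92) and IES4 at −0.53 (−0.995 to −0.08). These 4 lay within 2-fold, and the median of the 5 was 0.25, beside 0.16 over all measured identifiers.

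Below the minimum of 50 counts, IES2 had 1 count in CIP/TAP against 45 in TAP, a log2 ratio of −5.11 (−11.01 to −3.12). NHP10, with 0 against 13, was at least 4.92-fold lower in CIP/TAP. These genes held 46 and 13 counts over both tables and were not among the 5. With a minimum of 10 counts, 2 of 8 genes, IES2 and NHP10, were at least 2-fold lower, where 30.9% of all 2530 identifiers past that minimum were, and 1, ARP5, was higher, where 24.6% were. INO80, with 9 counts against 4, was at 0.89 (−0.85 to 3.14).

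TAP against ribo depletion addresses how 5′ ends in polyadenylated RNA differ from those in total RNA without ribosomal RNA. The labels of the ribo depletion samples name neither TAP nor CIP, so selection and enzyme treatment cannot be told apart. Of 4 genes with at least 50 counts, 1 was at least 2-fold higher in TAP, where 31.9% of all 1646 measured identifiers were, and 0 were lower, where 38.0% were. The higher one was IES4, with 93 counts in TAP against 0 in ribo depletion, at least 41.5-fold higher. IES3 was at 0.51 (0.45 to 0.57), ARP8 at 0.20 (−0.05 to 0.44) and ARP5 at −0.52 (−1.44 to 0.32). The median of the 4 was 0.35, beside −0.18 over all measured identifiers.

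Among genes with fewer counts, IES1 had 35 in TAP against 0 in ribo depletion and was at least 15.6-fold higher. IES2, with 45 against 4, was at 3.76 (2.46 to 5.85), and NHP10, with 13 against 1, was at 3.59 (1.39 to 9.53). With a minimum of 10 counts, 4 of 8 genes (IES1, IES2, IES4 and NHP10) were at least 2-fold higher in TAP, where 43.2% of all 2547 identifiers past that minimum were, and 0 were lower, where 33.7% were. Scaling weighed heavily here: total counts raised every ratio by 1.28 over TMM, which gave 3 genes at least 2-fold higher (IES3, IES4 and ARP8) and turned ARP5 to 0.77.

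CIP/TAP against ribo depletion used the same ribo depletion table and the same CIP/TAP library as the comparisons above, and its values are not independent of them. Of 4 genes with at least 50 counts, 3 passed 2-fold in the direction of CIP/TAP, as 36.4% of all 1700 measured identifiers did, and 0 passed it in the other, as 35.6% did. IES4, with 73 counts against 0, was 30.1-fold higher with the 0 set at 3 counts, and its log2 interval began at 4.58. ARP5, with 97 against 35, was at 1.77 (1.21 to 2.38), and IES3, with 9728 against 4894, was at 1.30 (1.25 to 1.35). ARP8 was at 0.52 (0.29 to 0.74), and the median of the 4 was 1.53, beside 0.02 over all measured identifiers. IES1, with 47 counts against 0, was 19.4-fold higher with the 0 set at 3 counts, and its log2 interval began at 3.92. It fell short of the minimum, and INO80, with 9 against 11, was at 0.03 (−1.43 to 1.43). With a minimum of 10 counts, 4 of 6 genes (IES1 beside the 3) were at least 2-fold higher, where 40.5% of all 2370 identifiers past that minimum were, and 0 were lower, where 37.0% were. Total counts raised the ratios by 1.05 and put ARP8 past 2-fold as well, at 1.57.

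**Figure D4:**
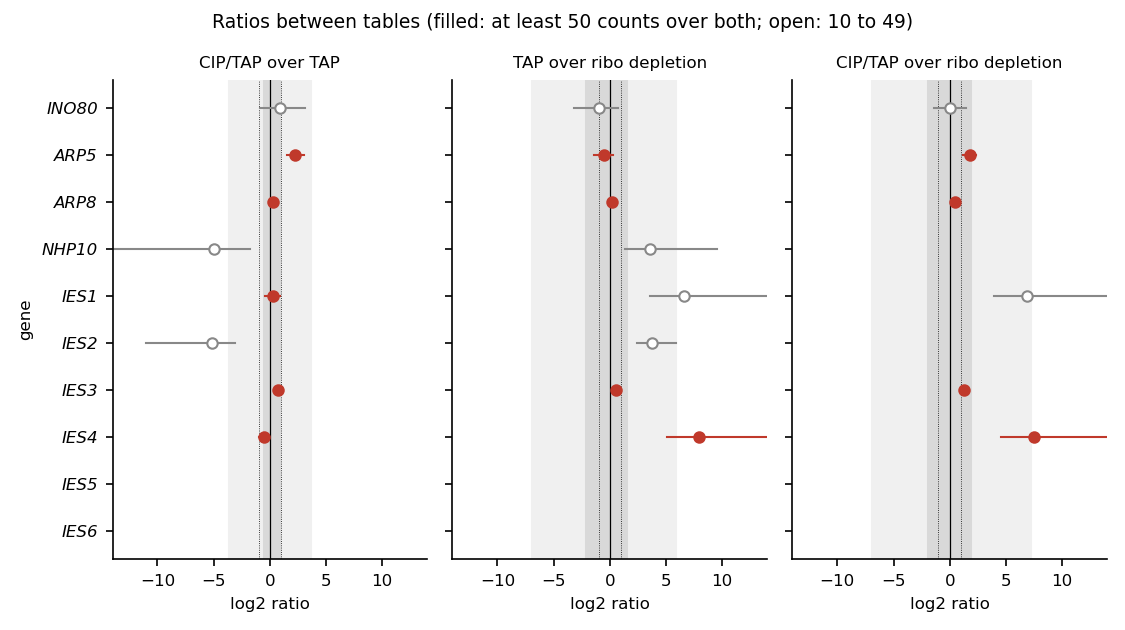
Log2 ratio between tables for each gene with its exact 95% interval (horizontal axis; filled points: at least 50 counts over both tables, open points: 10 to 49 counts). The bands hold the middle 50% (dark) and 90% (light) of all measured identifiers, dotted lines mark 2-fold, and lines that reach the right or left edge belong to genes at 0 in a table. ARP5 lies at 2.21 for CIP/TAP over TAP, and IES4 lies at the far right in both comparisons with ribo depletion.

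The complex also contains subunits that it shares with other complexes. Of these 5, the AAA+ ATPase genes RVB1 and RVB2 had 39 and 8 counts in CIP/TAP, 57 and 45 in TAP, and 4 and 0 in ribo depletion. Both had more counts in TAP than in either other table. The divergent neighbour of RVB1, HST4 at 342 bp, had 994, 1098 and 717 counts, and that of RVB2, ENV7 at 530 bp, had 797, 1260 and 819. ACT1 (actin) had 1339, 1016 and 907 counts and was the only shared subunit gene with at least 10 in all 3 tables, with log2 ratios of 0.21 (0.10 to 0.33) for CIP/TAP over TAP and 0.59 (0.45 to 0.72) for TAP over ribo depletion. ARP4, whose product is also found in SWR1 and NuA4, and TAF14, which encodes a YEATS-domain protein of several complexes, were at 0 throughout. So were 39.6% of all identifiers.

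Other remodellers were set beside INO80 as a description of these tables. Of 11 genes for the SWR1 complex and H2A.Z, 6 had at least 10 counts in CIP/TAP, 7 in TAP and 6 in ribo depletion, with medians of 13, 33 and 47. Of 17 genes for RSC, an abundant remodeller that clears promoters of nucleosomes, 7, 8 and 7 had at least 10 counts, with medians of 1, 3 and 4. Over all identifiers, 33.0%, 37.1% and 31.5% had at least 10 counts, and the median was 0 in each table. Close divergent neighbours, within 500 bp, were present for 3 of 10 INO80 complex genes. They were present for 5 of 11 SWR1 and H2A.Z genes and 6 of 17 RSC genes. Of all 5797 identifiers, 918 were in the divergent class of IES3 and 416 in that of ARP8 and NHP10. Still closer divergent pairs are outside these classes, so the full share within 500 bp is not given. Under the ATPase genes, 9, 4 and 11 counts were listed for INO80 and 160, 118 and 1494 for SWR1. STH1 of RSC had 79, 79 and 8. These are raw counts, and the ribo depletion table had the largest total. By start-side neighbour, INO80 and SWR1 were in a class with a median of 0 in each table. STH1 was in the class of IES3, with medians of 203, 155.5 and 212.5. The counts therefore do not compare the expression of these genes. The highest count in every table was that of IES3 among INO80 complex genes and that of HTL1 among RSC genes, with 3756, 2704 and 45099. In TAP over ribo depletion 1 of 4 measured INO80 complex genes was at least 2-fold higher and 0 were lower. Of 6 measured SWR1 and H2A.Z genes 2 were higher and 2 lower, and of 8 RSC genes 1 was higher and 7 lower, beside 31.9% higher and 38.0% lower over all measured identifiers. The difference between the lists was not tested.

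**Figure D5:**
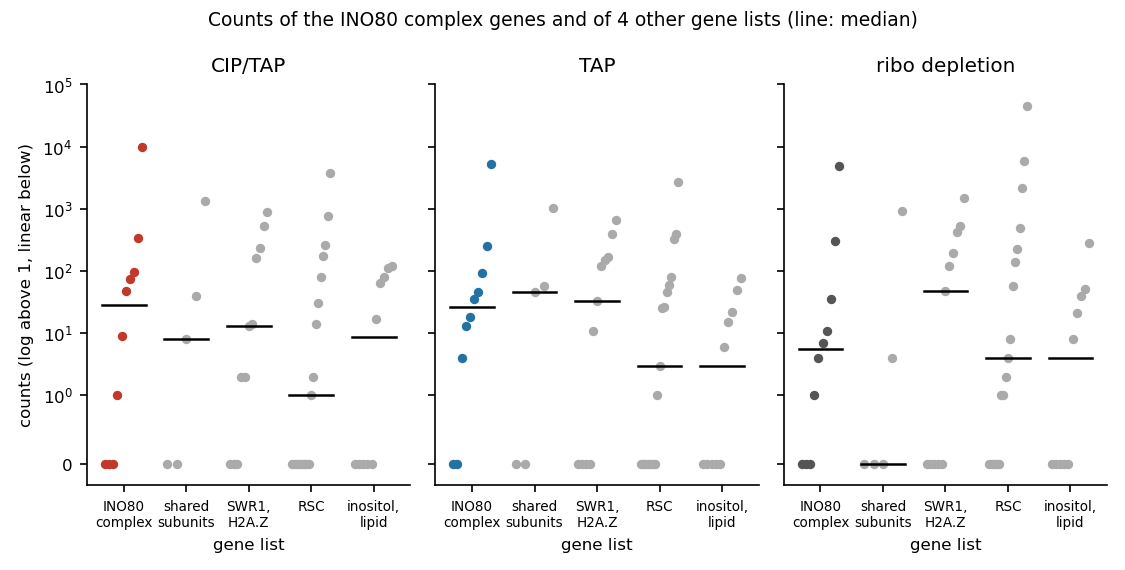
Counts of single genes (dots, vertical axis logarithmic above 1) in CIP/TAP, TAP and ribo depletion for the INO80 complex genes (coloured) and for shared subunits, SWR1 and H2A.Z, RSC, and inositol and phospholipid genes (grey), with each list's median as a line. The INO80 complex medians are 28, 26.5 and 5.5 counts, and its highest dot in each panel is IES3.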

How the data were processed

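The authors deposited raw, unnormalized counts for each gene identifier, per the file headers. Per the submitters' processing notes, the build was sacCer3 and the tools named, without their roles, were BWA 0.6.2, featureCounts, bedtools and bcl2fastq. Neither labels nor headers state the counted feature, the strand setting or how 3 ribo depletion samples became 1 table. Positions and names came from the RefSeq gene table of R64, which matched 5794 of 5797 identifiers, and strand from the letter W or C in each name. Members were taken by identifier. The members, lists and thresholds were chosen with earlier results of these data known. All 10 members and their nearest start-side neighbours are named.

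Ratios are log2 of (count + 0.5) over library size, scaled by pairwise TMM (edgeR 4.0.16, R 4.3.3), with a minimum of 50 counts in a pair of tables and a threshold of 2-fold. The edgeR quasi-likelihood test needs replicates and was not run. Intervals are exact Poisson (counts), Clopper-Pearson (shares) and conditional binomial (ratios) at 95%, computed in Python 3.11.15 with scipy 1.17.1. Without molecular identifiers, reads are not independent molecules, and floors and intervals reflect counting error alone. Folds against 0 set the 0 at a floor of 3 counts and leave out the error of the other count. The ratio step was also run on simulated Poisson counts with as many genes raised as lowered. That run does not show which scaling suits these tables. Alternatives changed the scaling (total counts, upper quartile, DESeq2 1.42.0 size factors), the added count, the minimum counts and the choice of neighbour. Sequences were not used here.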

Additional observations from a re-analysis of the deposited data

How the results depend on the processing

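No paired analysis was possible because each group analysed had a single table of counts, and for the same reason no ribo depletion replicate could be left out. Scaling altered the number of genes at least 2-fold higher for TAP over ribo depletion, to 3 with total counts against 1 with TMM, and for CIP/TAP over ribo depletion, to 4 against 3. Changes in the minimum count moved these numbers further, since fewer or more genes were then measured. For CIP/TAP over TAP, minimums of 10 and of 1 count each gave 2 lower against 0, and 200 counts gave 0 higher against 1. For TAP over ribo depletion, minimums of 10 and of 1 count each gave 4 higher, a minimum of 1 count gave 1 lower, and 200 counts gave 0 higher. For CIP/TAP over ribo depletion, a minimum of 1 count gave 3 lower against 0, and 200 counts gave 1 higher against 3. Raising the level from 10 to 50 counts left 3 of 7 genes in TAP and 2 of 4 in ribo depletion, and a level of 1 count gave 7 in ribo depletion. With 5 added to each count, IES4 against ribo depletion was at 4.71 for TAP and 4.27 for CIP/TAP. No gene past 2-fold changed direction under the scalings, added counts and minimums tried. The number of divergent pairs in which the INO80 complex gene had the larger count moved by under 1.5 times with adjacent systematic names or counts per kb. Values under 10 counts, those of INO80 in TAP and CIP/TAP, IES5 and IES6 among them, rest on few or no counts. Why they were low was not tested.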

Other observations

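The INO80 gene is named for inositol, and genes of inositol and phospholipid synthesis were counted unevenly. INO1, the inositol-phosphate synthase gene, was at 0 in all 3 tables, as were INO2, OPI1, CHO1 and CHO2. These were 5 of the 10 genes of the list, beside 39.6% of all identifiers. The start-side neighbour was on the same strand for INO1, OPI1, CHO1 and CHO2, and divergent at 847 bp for INO2. INO4, which encodes the partner of Ino2 in the activator of these genes, had 81 counts in CIP/TAP, 15 in TAP and 21 in ribo depletion, with a log2 ratio of 2.21 (95% interval 1.44 to 3.15) for CIP/TAP over TAP. PIS1 (phosphatidylinositol synthase) had 63, 6 and 8 counts and was at 3.10 (2.01 to 4.71) in the same comparison. Of 4 measured genes of this list, INO4 and PIS1 were the 2 past 2-fold in the direction of CIP/TAP, and 0 passed it in the other, beside 22.2% and 15.6% of all measured identifiers. Their divergent neighbours YOL107W at 216 bp and MRD1 at 338 bp had 883, 568 and 4601 counts and 257, 155 and 4786 counts. OPI3, CKI1 and CPT1, of phosphatidylcholine synthesis, had 121, 110 and 17 counts in CIP/TAP, 77, 50 and 22 in TAP, and 277, 40 and 52 in ribo depletion.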
